A study of Mus musculus with 3 samples.

Results

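The 10 genes described here carry or control the export of cholesterol from macrophages: the liver X receptor (LXR) genes *Nr1h2* and *Nr1h3*, 6 genes of the LXR program or of the oxysterols that feed it (*Abca1*, *Abcg1*, *Apoe*, *Mylip*, *Lpcat3* and *Ch25h*), and *Npc1* and *Npc2* for the release of cholesterol from lysosomes. They were found by their gene name among the gene probes of the arrays, which gave 10 of 26840 genes with a symbol and 19 of 56605 gene probes. Total RNA of RAW 264.7 cells, a mouse macrophage line, was hybridised in 1 colour (Cy3) to SurePrint G3 Mouse GE microarrays, with 1 array for each of 3 conditions. Macrophages were given LPS alone, *Lacticaseibacillus rhamnosus* CRL1505 and then LPS (CRL1505 + LPS), or *Lactiplantibacillus plantarum* CRL1506 and then LPS (CRL1506 + LPS). Lactobacilli were present for 24 h at 50000000 cells/mL and washed away, and LPS, which activates TLR4, was given to all 3 cultures at 50 ng/mL. The series design states 12 h of LPS, while the sample descriptions state 3 h. The arrays used held no cells without LPS, and each ratio compares a strain + LPS with LPS alone or with the other strain + LPS.

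LXRs are nuclear receptors that pair with a retinoid X receptor on DNA and are switched on by oxysterols, the oxidised forms of cholesterol. In macrophages loaded with cholesterol they raise the transporters ABCA1 and ABCG1, which pass cholesterol to apolipoproteins and to high-density lipoprotein, and they lower uptake through the ubiquitin ligase encoded by *Mylip*. Signals from TLRs and interferons are known to act on the same program, and *Ch25h* is a known target of both.

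The following sequences are given because they carry the observations below. The promoter windows of *Abca1* and *Ch25h* are those of RefSeq on GRCm38.p6, 250 bases up to the start of the gene, on the strand of the gene. The *Abca1* window lies on the minus strand at chr4:53159896-53160145. Capitals mark, from left to right, an E-box (CACGTG) and a match on the opposite strand to the LXR response element, a direct repeat of the half-site GGTNA searched with 5 bases between the copies.
Abca1 promoter: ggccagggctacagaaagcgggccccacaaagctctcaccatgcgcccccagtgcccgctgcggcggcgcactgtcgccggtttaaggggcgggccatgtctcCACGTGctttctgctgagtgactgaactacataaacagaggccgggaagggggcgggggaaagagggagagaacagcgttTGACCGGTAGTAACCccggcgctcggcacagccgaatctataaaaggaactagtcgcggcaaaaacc
The *Ch25h* window lies on the minus strand at chr19:34475149-34475398. Capitals mark a cAMP response element (CRE, TGACGTCA), a motif that was added to the search after this window had been read.
Ch25h promoter: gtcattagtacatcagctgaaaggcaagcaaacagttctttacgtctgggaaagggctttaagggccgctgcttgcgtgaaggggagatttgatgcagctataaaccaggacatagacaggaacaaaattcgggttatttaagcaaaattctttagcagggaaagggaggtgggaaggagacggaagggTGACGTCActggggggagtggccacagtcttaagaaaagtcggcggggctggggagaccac
The probes of *Apoe* and *Abca1* below are those on which the difference between strains rests or on which the probes of a gene disagree. On mm9, the build of the array files, the *Apoe* probe lies on the minus strand at chr7:20281732-20281791. The *Abca1* probe covers 741 bases at chr4:53048405-53049145 on the minus strand although it is only 60 bases long, and so bridges an intron.
Apoe probe: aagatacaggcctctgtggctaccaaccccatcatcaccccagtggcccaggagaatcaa
Abca1 second probe: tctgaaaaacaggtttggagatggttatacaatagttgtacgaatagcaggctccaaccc

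RefSeq windows of 300 bases, 250 before and 50 after the start of a gene, were at hand for 8 of the 10 members (11 windows). None was at hand for *Abcg1* and *Npc1*, whose promoters were not searched. On either strand, 6 motifs were searched. The LXR response element was matched in the *Abca1* window, at positions -67 to -53 from the start of the gene, where the matching strand reads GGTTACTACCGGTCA, and in none of the other windows of members. This pattern stands in 236 of 32851 windows of all genes (0.718%). The E-box of *Abca1* at -147 to -142 is a common pattern (7.15% of all windows), and the CRE of *Ch25h* at -61 to -54 stands in 1.79%. No window of a member held the cores of the interferon-stimulated response element (copies of TTTC in direct repeat, 2 bases apart; 3.44% of all windows), the NF-kB site (GGG and TTTCC, 2 bases apart; 1.63%) or the sterol response element (TCACNCCAC, 1.24%). A match is a string of letters in a window, and binding was not measured.

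Values are relative signals, that is, processed signals over the 75th percentile of all gene spots of the same array, which was 743 with LPS alone, 517 with CRL1505 + LPS and 698 with CRL1506 + LPS. With 1 array per condition there was no replicate check and no test, and a gene was counted as changed at 2-fold, a log2 ratio of 1 in size. For scale, the log2 ratio of a probe spotted repeatedly had a median SD of 0.048 with CRL1505 + LPS and 0.043 with CRL1506 + LPS, and that between different probes of a gene 0.228 and 0.215, respectively; neither holds the variation between cultures. The array of CRL1506 + LPS shared its slide and scan with that of LPS alone, and the CRL1505 + LPS array came from a different slide and scan, so that CRL1505 and its slide cannot be told apart. Both strains were set against the same LPS array. Of the macrophage markers, 9 of 9 were well above background on every array, with summed relative signals of 776 (LPS), 789 (CRL1505 + LPS) and 645 (CRL1506 + LPS), while lists for other cell types summed to between 0.031 (hepatocyte) and 1.32 (T cell), with at most 2 genes of a list well above background. The hepatocyte genes *Alb*, *Ttr* and *Apoa1* stayed near background on all 3 arrays. Not all genes of the other lists did. *Cd3e* of the T cell list was at 1.17 (LPS), 1.05 (CRL1505 + LPS) and 1.2 (CRL1506 + LPS). *Elane* of the neutrophil list was at 0.883, 0.72 and 0.746 in the same order. Within the macrophage list, *Csf1r*, the receptor for CSF-1, was at 162, 58.4 and 88.4 in the same order of arrays, and *Adgre1*, which encodes F4/80, at 6.11, 29.5 and 12.3. The part of these shifts in the values of the members was not tested.

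All 10 members were well above background on all 3 arrays by their brightest probe, which stands for the gene below. With CRL1505 + LPS, 0 of 10 members were 2-fold or more higher than with LPS alone and 1 was at least 2-fold lower, against 9.93% and 8.41% of the 15603 genes compared. With CRL1506 + LPS the counts were also 0 higher and 1 lower, against 5.67% and 3.53% of 16279 genes. In both comparisons the gene was *Ch25h*, and a count of 1 in 10 is near these backgrounds. Between the strains, 1 member, *Mylip*, was at least 2-fold higher with CRL1505 + LPS and 1, *Apoe*, at least 2-fold lower, against 9.02% and 7.47% of 15780 genes. The median log2 ratio of the members was 0.09 with CRL1505 + LPS and -0.20 with CRL1506 + LPS, and that of all genes compared 0.01 and -0.06. The members thus moved in no common direction, and the account goes gene by gene.

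**Figure D1:**
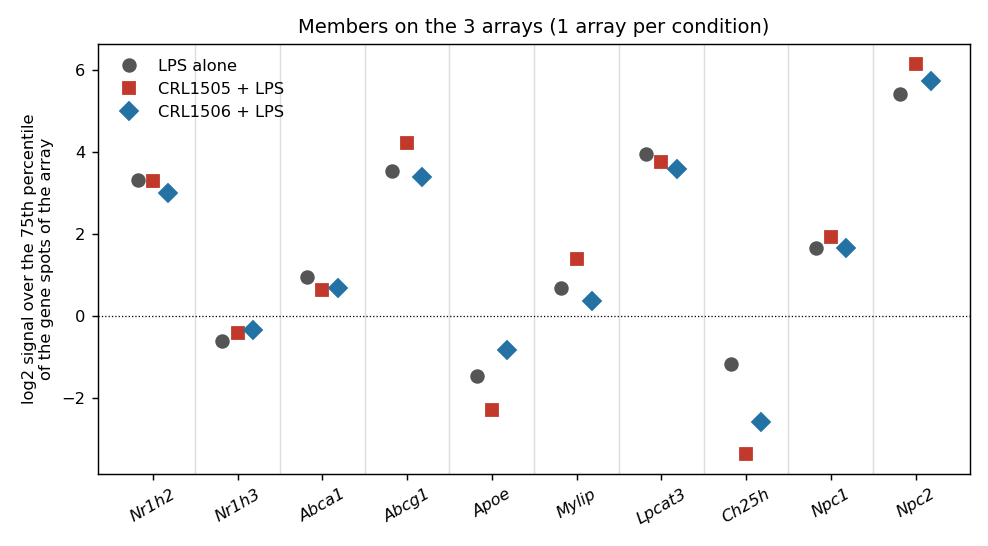
Relative signal of the 10 members on the log2 scale (y axis; 0 is the 75th percentile over the gene spots of each array) on the LPS (grey circles), CRL1505 + LPS (red squares) and CRL1506 + LPS (blue diamonds) arrays, 1 point per array and no error bar. Heights are to be read within a gene only, since probes differ in brightness; *Ch25h* falls from -1.18 to -3.37 and -2.59, and *Apoe* lies at -1.45, -2.29 and -0.83.

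*Ch25h* encodes an enzyme that hydroxylates the side chain of cholesterol and so makes an oxysterol that activates LXRs and has antiviral activity. Its relative signal was 0.440 with LPS alone, 0.0966 with CRL1505 + LPS and 0.166 with CRL1506 + LPS, from intensities of 327, 49.9 and 116. The signal was highest with LPS alone and lowest with CRL1505 + LPS. The ratios correspond to 4.56-fold lower (log2 ratio -2.19) and 2.66-fold lower (log2 ratio -1.41), respectively. Of the genes compared, 1.16% were as low or lower with CRL1505 + LPS and 1.89% with CRL1506 + LPS. Under 7 other normalizations the log2 ratio ran from -2.82 to -1.41 and from -1.61 to -1.09, and 7 of 7 kept it past 2-fold for either strain. *Ch25h* has a single probe on the array (chr19:34548418-34548477 on mm9, minus strand), so that no second probe could be set beside it. This gene was 1.71-fold lower with CRL1505 + LPS than with CRL1506 + LPS (log2 ratio -0.78), which reached 2-fold under 1 of 7 other normalizations. In these RNA samples fewer cells expressing a gene and less RNA per cell cannot be told apart.

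Of 7 other listed genes of oxysterol metabolism and sensing, 4 could be compared with LPS alone, and 0 were 2-fold or more higher and 1 at least 2-fold lower with either strain. Of all genes, 8.41% were at least 2-fold lower with CRL1505 + LPS and 3.53% with CRL1506 + LPS. *Cyp27a1*, a sterol hydroxylase of mitochondria, had log2 ratios of 0.96 with CRL1505 + LPS and 0.60 with CRL1506 + LPS. *Cyp46a1*, a sterol hydroxylase known from brain, was at -0.40 and 0.21, and *Hsd3b7*, which acts on oxysterols on the way to bile acids, at -0.39 and -0.11. The gene past 2-fold was *Gpr183*, the receptor that draws immune cells along oxysterol gradients, named here after its values were seen. *Gpr183* was well above background with LPS alone only, and was at least 2.80-fold lower with CRL1505 + LPS and at least 3.39-fold lower with CRL1506 + LPS. Over the other normalizations its log2 ratio ran from -2.12 to -0.77 and from -2.13 to -0.96, so that neither stayed past 2-fold throughout. Here and below, "at least" marks a ratio in which the dim side was set to the higher of its own signal and the lowest signal well above background on its array (relative signals of 0.0573 for CRL1505 + LPS, and of 0.0474 for CRL1506 + LPS).

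The receptors themselves stayed well under 2-fold. *Nr1h2*, which encodes the widely expressed LXRβ, had relative signals of 9.98 with LPS alone, 9.95 with CRL1505 + LPS and 8.07 with CRL1506 + LPS. The log2 ratio was -0.01 with CRL1505 + LPS and -0.31 with CRL1506 + LPS. A further probe of *Nr1h2* gave -0.24 and -0.21, and another stayed near background on all 3 arrays. *Nr1h3* encodes LXRα, the form typical of macrophages and liver, and its relative signals were 0.660, 0.749 and 0.796 in the same order. The log2 ratio was 0.18 with CRL1505 + LPS and 0.27 with CRL1506 + LPS. A second probe of *Nr1h3* gave -0.24 and 0.09, so that its probes disagreed in sign with CRL1505 + LPS. With CRL1505 + LPS the sign of both receptors also turned with the normalization (from -0.64 to 0.29 for *Nr1h2* and from -0.45 to 0.48 for *Nr1h3*).

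Of 11 listed partners and co-regulators of LXRs, 10 could be compared with LPS alone. With CRL1505 + LPS, 0 were 2-fold or more higher and 2 at least 2-fold lower, against 9.93% and 8.41% of all genes. With CRL1506 + LPS 0 were past 2-fold either way. The median log2 ratio was -0.36 and -0.22. *Rxra*, which encodes a retinoid X receptor, was at 7.14 with LPS alone, 2.42 with CRL1505 + LPS and 7.72 with CRL1506 + LPS. *Rxra* was thus 2.96-fold lower with CRL1505 + LPS (log2 ratio -1.56), with values from -2.19 to -1.27 over the other normalizations, and at 0.11 with CRL1506 + LPS. Its second probe gave -0.48 and 0.31. *Rxrb*, another retinoid X receptor gene, was at 14.9 with LPS alone, 11.8 with CRL1505 + LPS and 12.2 with CRL1506 + LPS. The log2 ratios of *Rxrb*, named after its values were seen, were -0.33 and -0.28. *Pparg*, another nuclear receptor and a known inducer of *Nr1h3*, was at least 3.23-fold lower with CRL1505 + LPS, with a dim spot there, and at -0.68 with CRL1506 + LPS. Over the other normalizations the log2 ratio of *Pparg* with CRL1505 + LPS ran from -2.32 to -0.68. The coactivator gene *Ncoa2* was at -0.51 and -0.45, with a second probe at -0.97 and -0.27. *Nrip1*, a co-repressor of nuclear receptors, was at -0.39 and -0.56, and its other probes spread from 0.21 to 0.39 with CRL1505 + LPS and from -0.40 to 1.78 with CRL1506 + LPS.

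*Abca1* and *Abcg1* differed from each other under CRL1505 + LPS. *Abca1*, whose product hands cholesterol and phospholipid to lipid-poor apolipoprotein, was at 1.94 with LPS alone, 1.56 with CRL1505 + LPS and 1.62 with CRL1506 + LPS. The log2 ratios of -0.31 and -0.26 stayed below 0 under all 7 other normalizations for either strain. Its second probe, the one that bridges an intron, was at 0.183 with LPS alone and 0.175 with CRL1506 + LPS, and was not well above background with CRL1505 + LPS. That probe read at least 3.05-fold lower with CRL1505 + LPS and had a log2 ratio of -0.06 with CRL1506 + LPS. Between the strains the brightest probe gave -0.05 and the second probe at least 2.92-fold lower with CRL1505 + LPS, so that the value of *Abca1* with CRL1505 + LPS depends on the probe.

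*Abcg1* moves cholesterol toward high-density lipoprotein particles. Its relative signal was 11.6 with LPS alone, 18.7 with CRL1505 + LPS and 10.5 with CRL1506 + LPS. The CRL1505 + LPS array was the high one, 1.61-fold over LPS alone (log2 ratio 0.69, from 0.06 to 0.98 over the other normalizations). With CRL1506 + LPS the log2 ratio was -0.14 (from -0.35 to -0.03). The ratio between strains, 1.78-fold, did not reach 2-fold and had 11.9% of genes as high or higher. *Abcg1* is read by a single probe (chr17:31252580-31252639 on mm9, plus strand).

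Of 8 other transporters of the ABCA and ABCG families, 6 could be compared, and 0 were 2-fold or more higher and 1 at least 2-fold lower with either strain. The shares of all genes at least 2-fold lower were 8.41% with CRL1505 + LPS and 3.53% with CRL1506 + LPS. *Abca2*, a transporter of late endosomes and lysosomes, was at 0.507 with LPS alone, 0.149 with CRL1505 + LPS and 0.273 with CRL1506 + LPS. This is 3.40-fold and 1.86-fold lower, with log2 ratios of -1.77 and -0.89. *Abca3*, which loads lipid into lamellar bodies, was at -0.54 and -0.21, with its LPS spot uneven or among uneven neighbours, and *Abca7* at -0.01 and -0.03. The probes of *Abcg4* disagreed with CRL1505 + LPS, at -0.01 and 1.06, and gave 0.49 and 0.59 with CRL1506 + LPS. Those of *Abcg2* gave 0.00 and -0.58 with CRL1505 + LPS, and 0.07 and 0.80 with CRL1506 + LPS. *Abca2* is the gene counted with CRL1505 + LPS. That counted with CRL1506 + LPS is *Abca9*, named after its values were seen, with at least 2.08-fold lower, and its LPS spot was uneven or had uneven neighbours. Over the other normalizations the log2 ratio of *Abca9* with CRL1506 + LPS ran from -1.39 to -0.54.

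*Apoe* was the member with the widest gap between strains. It encodes apolipoprotein E, which macrophages secrete as an acceptor of cholesterol. The relative signal was 0.367 with LPS alone, 0.204 with CRL1505 + LPS and 0.563 with CRL1506 + LPS, so that the strains lay on opposite sides of LPS alone. The ratio was 1.80-fold lower with CRL1505 + LPS (log2 ratio -0.85) and 1.53-fold higher with CRL1506 + LPS (log2 ratio 0.62), neither past 2-fold. Between the strains *Apoe* was 2.76-fold lower with CRL1505 + LPS (log2 ratio -1.46), and 2.92% of genes were as low or lower. The gap was past 2-fold under 6 of 7 other normalizations, with a range from -1.96 to -0.97. The second probe of *Apoe* was at 0.104 with LPS alone and 0.174 with CRL1506 + LPS, a log2 ratio of 0.74, and was dim with CRL1505 + LPS, giving a bound of at least 1.81-fold lower. Both probes thus ran the same way for either strain.

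*Mylip* encodes IDOL, a ubiquitin ligase that limits the uptake of lipoprotein cholesterol. Its relative signal was 1.63 with LPS alone, 2.65 with CRL1505 + LPS and 1.28 with CRL1506 + LPS. The log2 ratio was 0.70 with CRL1505 + LPS (from 0.07 to just under 2-fold over the other normalizations) and -0.35 with CRL1506 + LPS (from -0.55 to -0.26). Between the strains it was 2.07-fold higher with CRL1505 + LPS (log2 ratio 1.05), which held under 2 of 7 other normalizations. There is a single probe (chr13:45506979-45507038 on mm9, plus strand).

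Of 8 listed genes of sterol uptake, 6 could be compared with CRL1505 + LPS and 5 with CRL1506 + LPS. With CRL1505 + LPS 1 was higher by 2-fold or more and 1 lower, against 9.93% and 8.41% of all genes. With CRL1506 + LPS 0 were past 2-fold either way. *Lrp1*, a receptor that takes up apolipoprotein E particles, was at 7.76 with LPS alone, 3.16 with CRL1505 + LPS and 4.82 with CRL1506 + LPS. It was 2.45-fold lower with CRL1505 + LPS (log2 ratio -1.30), while its other probes ran from -0.73 to -0.41, and the log2 ratio was -0.69 with CRL1506 + LPS, with other probes from -0.46 to 0.28. *Scarb1*, the receptor for high-density lipoprotein, was at -0.97 and -0.45, with a second probe at -0.81 and -0.48. The scavenger receptor gene *Msr1* was at -0.14 and 0.11, with a second probe at 0.43 and 0.01. *Cd36* was at 0.38 with CRL1506 + LPS, where its spot was uneven or had uneven neighbours, and ran from -0.04 to 0.46 over the other normalizations. The gene counted as higher was *Olr1*, named after its values were seen, and its spot on the CRL1505 + LPS array was uneven or had uneven neighbours.

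**Figure D2:**
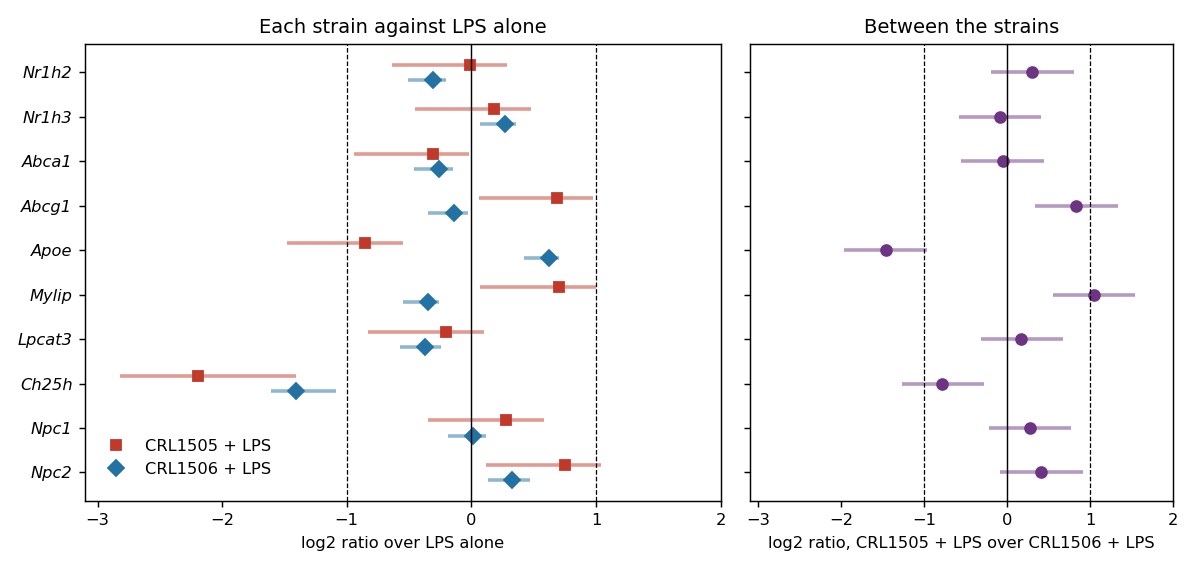
Log2 ratio of the 10 members (x axis), for each strain + LPS over LPS alone on the left (red squares CRL1505 + LPS, blue diamonds CRL1506 + LPS) and for CRL1505 + LPS over CRL1506 + LPS on the right. Points are the reported values, pale bars span 7 other normalizations and are not replicate error, and dashed lines mark 2-fold; in the left panel the point for *Ch25h* alone lies past a dashed line, at -2.19 and -1.41.

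*Lpcat3*, whose product puts polyunsaturated chains into phospholipids and is an LXR target, was at 15.6 with LPS alone, 13.6 with CRL1505 + LPS and 12.1 with CRL1506 + LPS. The log2 ratio was -0.20 with CRL1505 + LPS (from -0.83 to 0.10) and -0.37 with CRL1506 + LPS (from -0.57 to -0.24). The second probe gave -0.54 and -0.51. On the LPS array 9 of the 20 nearest spots of that second probe were uneven. By their brightest probes the other 6 lysophospholipid acyltransferases were all below 0 with either strain, with medians of -0.77 and -0.32, where 49.3% and 57.3% of all genes compared were below 0. Of these acyltransferases, 2 were at least 2-fold lower with CRL1505 + LPS and 1 with CRL1506 + LPS, against 8.41% and 3.53% of all genes. *Mboat1* was at -1.06 and -0.22, *Lpcat2* at -0.35 and -0.89, *Lpcat1* at -0.78 and -0.36, *Lpcat4* at -0.76 and -0.15, and *Mboat7* at -0.19 and -0.28. Other probes ran against this, with *Lpcat1* at 0.18 with CRL1505 + LPS and *Mboat7* from 0.02 to 0.62 with CRL1506 + LPS. The sign of *Mboat7* with CRL1505 + LPS also turned under another normalization, up to 0.10. The genes counted were *Mboat1* with CRL1505 + LPS and, with either strain, *Mboat2*, named after its values were seen. The log2 ratio of *Mboat1* with CRL1505 + LPS ran from -1.69 to -0.76 over the other normalizations. *Mboat2* was at least 2.08-fold and at least 2.51-fold lower, with uneven or uneven-neighboured spots on the LPS and CRL1505 + LPS arrays. Over the other normalizations its log2 ratio ran from -1.68 to -0.45 and from -1.67 to -0.87. Its spot was dim with either strain, so that *Mboat2* could enter only below 0.

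*Npc1* and *Npc2* work in sequence to move cholesterol out of lysosomes. *Npc2*, the soluble carrier, was at 42.8 with LPS alone, 71.8 with CRL1505 + LPS and 53.9 with CRL1506 + LPS. Both strains were above LPS alone, with log2 ratios of 0.75 (1.68-fold) and 0.33 (1.26-fold), and this direction held under 7 of 7 other normalizations for either strain. *Npc1*, the membrane protein that takes cholesterol over from the carrier, was at 3.15, 3.84 and 3.18, with log2 ratios of 0.28 and 0.01. Of 3 further *Npc1* probes, designed on other transcript models, 1 stayed near background on all 3 arrays. The remaining probes were dim, and with CRL1506 + LPS read a log2 ratio of 1.07 and at least 2.19-fold higher, unlike the brightest probe. Neither could be compared between CRL1505 + LPS and LPS alone.

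**Figure D3:**
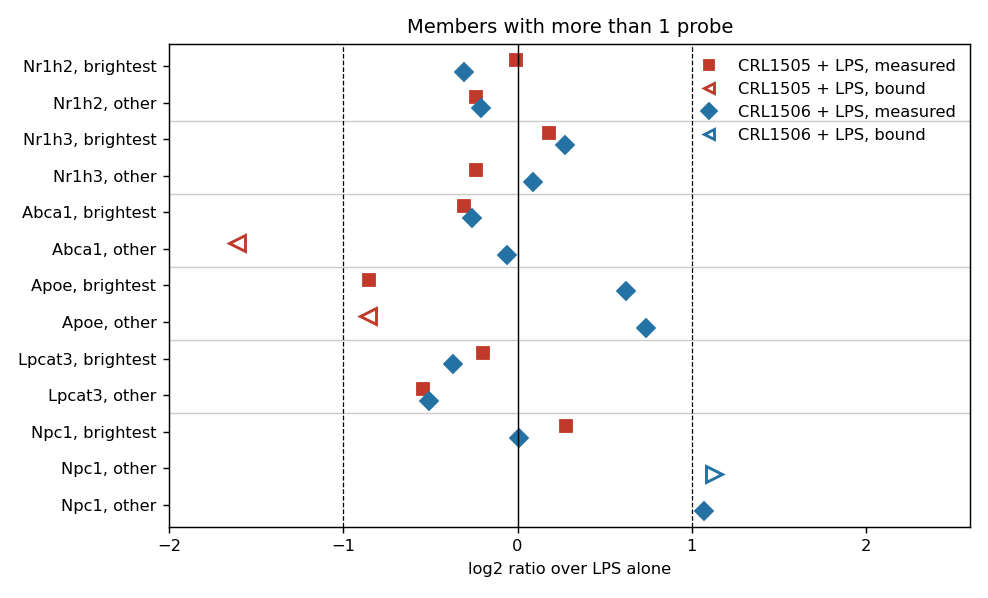
Log2 ratio over LPS alone (x axis) for each probe of the 6 members with more than 1 probe, with filled squares for CRL1505 + LPS, filled diamonds for CRL1506 + LPS, open triangles for bounds that point toward larger changes, and dashed lines at 2-fold. Probes not well above background on either array are left out; the *Apoe* probes lie together (-0.85 and a bound of -0.86; 0.62 and 0.74), while the second *Abca1* probe stands apart at a bound of -1.61.

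Of 14 listed genes of sterol storage and intracellular transport, 13 could be compared, 1 was at least 2-fold higher with CRL1505 + LPS, 0 with CRL1506 + LPS, and 0 were at least 2-fold lower. Of all genes, 9.93% were at least 2-fold higher with CRL1505 + LPS. *Soat2*, a cholesterol acyltransferase that makes the stored ester, was at 2.39 with LPS alone, 5.66 with CRL1505 + LPS and 4.74 with CRL1506 + LPS. The log2 ratios were 1.25 and 0.99, and a second probe gave 1.25 and 1.13. Over the other normalizations the ratios of the first probe ran from 0.62 to 1.54 and from 0.79 to 1.09. *Soat1*, the form known from macrophages, was at -0.07 and 0.56, and its 3 other probes ran from -0.11 to -0.01 and from -0.09 to 0.95. *Lipa*, the lysosomal lipase that frees cholesterol from its esters, was at -0.71 and -0.25, and the transfer protein gene *Stard4* at -0.60 and 0.05. *Osbp*, which exchanges cholesterol for a phosphoinositide, was at 0.47 and -0.54, with a second probe at 0.46 and 0.41, and the LPS spot of the first was uneven or had uneven neighbours.

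Of 15 other LXR targets, 11 could be compared with LPS alone. With CRL1505 + LPS 0 were 2-fold or more higher and 4 at least 2-fold lower, against 8.41% of all genes, and 10 of 11 were below 0, as were 49.3% of all genes. With CRL1506 + LPS 0 were 2-fold or more higher and 2 at least 2-fold lower, against 3.53%, and 8 of 11 were below 0, as were 57.3% of all genes. Bounds made up 2 of the 11 with CRL1505 + LPS (*Pltp* and *Apoc1*) and 1 with CRL1506 + LPS (*Pltp*). A gene dim with the strain but not with LPS alone could enter only below 0, and these bounds are among the genes counted as lower. With CRL1505 + LPS the sign of *Fasn* (-0.25), *Arl4c* (-0.27) and *Mertk* (-0.05) turned under another normalization, up to 0.05, 0.03 and 0.25, respectively; these genes were named after their values were seen. The medians were -0.45 and -0.48, beside 0.01 and -0.06 over all genes compared. *Scd2*, a desaturase that makes monounsaturated fatty acids, was at 47.5 with LPS alone, 14.3 with CRL1505 + LPS and 31.8 with CRL1506 + LPS, with log2 ratios of -1.73 and -0.58. *Apoc2*, which lies in one gene cluster with *Apoe*, was at 0.666, 0.257 and 0.443, with log2 ratios of -1.37 and -0.59 and a second probe at -1.53 and -0.78.

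*Apoc1*, of the same cluster, was at least 2.39-fold lower with CRL1505 + LPS (log2 ratios from -1.89 to -0.50 over the other normalizations) and at -0.76 with CRL1506 + LPS. In CRL1506 + LPS both genes were thus below LPS alone, whereas *Apoe* was above it. *Lpl*, lipoprotein lipase, was at 25.8, 19.2 and 11.9, with log2 ratios of -0.43 and -1.11, although its 5 other measured probes ran from -2.25 to -0.05 and from -1.03 to 1.39. With CRL1506 + LPS the log2 ratio of *Lpl* ran from -1.31 to -0.96 over the other normalizations. *Srebf1*, the LXR-driven regulator of fatty acid synthesis, was at -0.84 and -0.48. *Pltp*, phospholipid transfer protein, was named after its values were seen. Its relative signal was 0.473 with LPS alone, and it was not well above background with either strain, at least 8.25-fold lower with CRL1505 + LPS and at least 9.98-fold lower with CRL1506 + LPS. Over the other normalizations its log2 ratio ran from -3.67 to -1.86 and from -3.66 to -2.17.

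**Figure D4:**
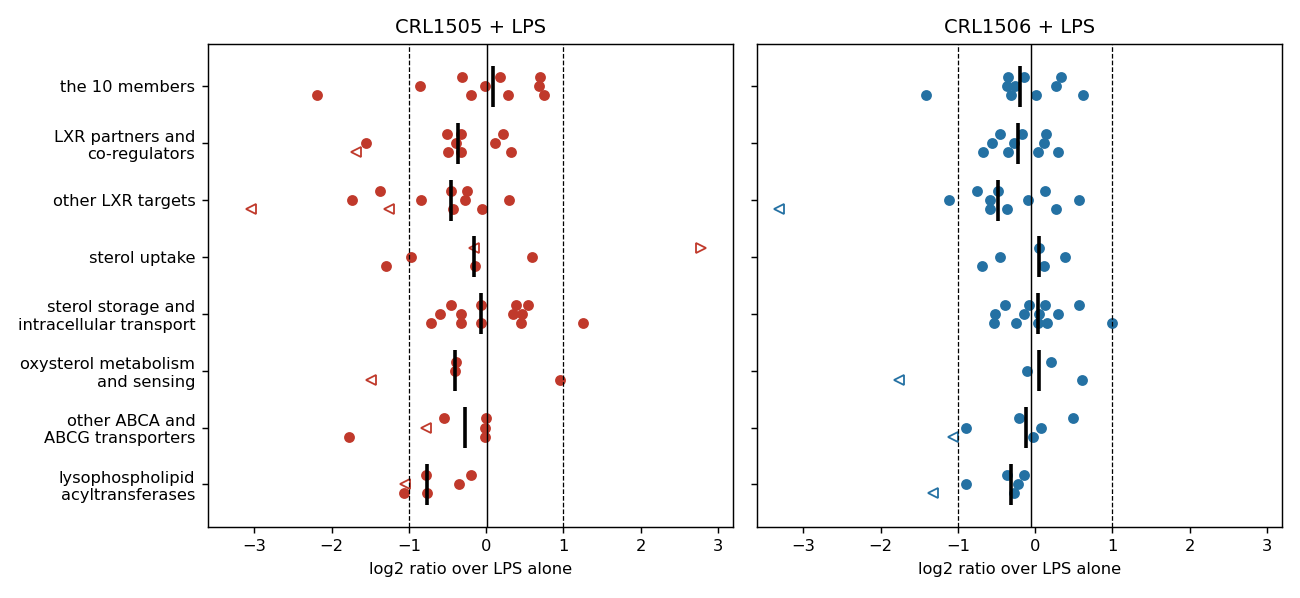
Log2 ratio over LPS alone (x axis) of the 10 members and of the genes of 7 pathway lists (rows), for CRL1505 + LPS (left, red) and CRL1506 + LPS (right, blue), 1 symbol per gene. Filled circles are measured ratios and open triangles bounds, thick bars are list medians, the thin line is the median of all genes compared and dashed lines mark 2-fold; the other LXR targets have medians of -0.45 and -0.48.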

How the data were processed

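Per the file headers, the intensities are processed signals of Agilent Feature Extraction 12.0.3.1, which the authors deposited without normalization between arrays. A further deposited table holds log2 values normalized between arrays. Its median was 6.77 on each array, and it differed by at most 0.135 from values made here from the median pixel signal by normexp with an offset of 50 and quantile normalization; it was used as an alternative. Probe positions are on mm9.

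The log2 processed signal was shifted by the 75th percentile of all gene spots of its array. Outlier spots were left out (467, 241 and 274 gene spots on the LPS, CRL1505 + LPS and CRL1506 + LPS arrays), no gene spot was saturated, and repeated spots were averaged. A gene was read by its brightest probe, with probes free of outlier spots preferred. Where neither of the arrays compared was well above background, a probe was left out. Where 1 was not, its side was set to a floor, and the probe was also left out if the floor was not the dimmer side. A spot was called uneven where its mean pixel signal exceeded the median by a log2 difference above 0.2, and a probe was marked where its own spot or at least 5 of its 20 nearest spots were uneven. The t-test named in the paper's methods needs replicates and was not run. Precision is limited by the number of arrays.

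The members and lists were chosen with earlier results of these data known. From each list the text names at most 5 genes, those with the largest log2 ratio in size with either strain among ratios measured on both arrays, and any further gene past 2-fold. A few other listed genes are marked as named after their values were seen. Some of the genes this rule picks are not reported here. Alternatives were 7 other normalizations, filters on dim, outlier and uneven spots, the mean over probes, and thresholds of 1.5-fold and 4-fold. The procedure was run on simulated copies of the LPS array, with noise like that of repeated spots and changes set in bright genes only. That check held no variation between cultures or slides. Python 3.11.15, pandas 2.3.3, NumPy 2.4.6, matplotlib 3.10.9, R 4.3.3 and limma 3.58.1 were used.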

Additional observations from a re-analysis of the deposited data

Results flagged for a closer look

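For 3 members the strains lay on opposite sides of LPS alone, both as reported and under all 7 other normalizations. The values closest to LPS alone came from different normalizations for the 2 strains. *Abcg1* was at 0.06 with CRL1505 + LPS under spike-in scaling, where it was at -0.28 with CRL1506 + LPS. Under cyclic loess *Abcg1* was at -0.03 with CRL1506 + LPS and at 0.6 with CRL1505 + LPS. *Mylip* was at 0.07 with CRL1505 + LPS under spike-in scaling. With 1 array per condition the difference between strains was not tested. The log2 ratio of CRL1505 + LPS over CRL1506 + LPS was 0.83 for *Abcg1*, -1.46 for *Apoe* and 1.05 for *Mylip*. Both probes of *Apoe* showed it, while *Abcg1* and *Mylip* have a single probe each.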

How the results depend on the processing

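No paired analysis was possible because each condition had 1 array, and for the same reason no array could be left out. Of 84 counts of members past the threshold under 14 alternatives, 66 stayed within 1.5 times of the reported count. With CRL1505 + LPS, shifting by the median made 1 member at least 2-fold higher (*Npc2*), beside 2417 of the 15103 genes compared. Spike-in scaling made 2 at least 2-fold lower (*Ch25h* and *Apoe*), beside 4037 of 16021 genes. Between the strains, the count of members at least 2-fold higher was 2 after shifting by the median, beside 3517 of 14900 genes. It was 0 under quantile, cyclic loess, normexp with quantile, and spike-in scaling and the 75th percentile over detected probes. The count of members at least 2-fold lower between the strains was 0 after shifting by the median and 2 under spike-in scaling. Beside these stood 434 of 14900 and 3137 of 15983 genes, respectively. At 1.5-fold, 3 members were higher and 2 lower with CRL1505 + LPS, 1 was higher with CRL1506 + LPS, and 2 were higher and 2 lower between the strains. At 4-fold the count lower with CRL1506 + LPS was 0, and so were both counts between the strains. The shares of all genes past 1.5-fold and 4-fold were not counted, so these member counts have no background beside them. Of 360 ratios of single members, 306 moved by less than the spread between probes of a gene, and no ratio past 2-fold changed sign. The filters on dim, outlier and uneven spots left every ratio and count of members as reported. Both totals include these unchanged values, which say nothing of stability. Averaging the probes moved *Npc1* from 0.01 to 0.74 with CRL1506 + LPS and from 0.27 to -0.51 between the strains, and *Abca1* from -0.31 to -0.96 with CRL1505 + LPS and from -0.05 to -0.80 between the strains. The median log2 ratio of all measured genes was 0.06, -0.06 and 0.09 for CRL1505 + LPS, CRL1506 + LPS and between the strains as reported, 0.35, -0.26 and 0.58 after shifting by the median, and -0.57, -0.20 and -0.41 under spike-in scaling. These scalings shift all genes alike, so that a member keeps its distance from that median. The share of higher among called genes was 54.1%, 61.6% and 54.7% as reported, 76.1%, 43.4% and 89.0% after shifting by the median, and 14.8%, 49.9% and 18.2% under spike-in scaling. It was 51.4% with CRL1506 + LPS under quantile normalization, and between the strains 67.2% under cyclic loess and 36.5% with the 75th percentile over detected probes.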
